A study of Mus musculus with 18 samples.

Results

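Oxidative phosphorylation is carried out in the inner mitochondrial membrane by 5 multisubunit complexes. Complexes I and II feed electrons from NADH and succinate to ubiquinone, complex III passes them to cytochrome c, complex IV hands them to oxygen, and complex V, the ATP synthase, uses the resulting proton gradient to make ATP. Most subunits are encoded in the nucleus, and several complex IV subunits exist in paired forms, a common form and a form typical of muscle, testis, lung or low oxygen. In ovarian follicles the oocyte takes much of its pyruvate from the granulosa cells around it and oxidises it in its own mitochondria, while granulosa cells rely largely on glycolysis. The nuclear genes of these subunits were taken from the array by their symbols, which gave 84 genes on 174 probe sets, of 18193 genes with a single symbol. Each gene is represented by its brightest probe set, since 50 of the 84 had more than 1. There were 34 genes of complex I, 4 of complex II, 9 of complex III (the cytochrome c1 gene Cyc1 among them), 19 of complex IV (Ndufa4 and Ndufa4l2 among them), 17 of complex V and the cytochrome c gene Cycs. The brightest probe sets of 81 genes passed the filter on low signal, and those of Cox7b2, Cox8b and Cox8c did not.

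The samples were preantral to small antral follicles dissected from female C57BL/6Ntac mice (written C57BL/6Tac in the series text) of 6 to 8 weeks. Follicles of 7 mice were pooled for each experiment and divided between single-drop cultures with vehicle or with recombinant anti-Müllerian hormone (AMH) at 50 or 200 ng/mL, a TGF-β family hormone that restrains follicle growth. All cultures, controls included, held 80 IU/L FSH and 10 IU/L LH, and were collected after 12 or 24 h. Each of the 6 groups had 3 arrays, each from a pool of its own, and a pool gave 1 array per dose at 1 time. The groups were vehicle, AMH 50 and AMH 200 at 24 h, and vehicle, AMH 50 and AMH 200 at 12 h. The descriptions of the 6 AMH samples of 12 h give 24 h, while their titles and sources give 12 h, which was used. A whole follicle holds an oocyte, granulosa cells and often theca cells, so fewer cells of a type and less RNA per cell cannot be told apart. The number of arrays, 3 per group, limits the precision of every comparison.

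Replicate 3 of AMH 50 at 12 h stood apart from all other arrays. Its log2 signals correlated with those of the other 17 arrays at 0.604 to 0.624, where those 17 correlated with each other at 0.904 to 0.992. It is described separately and enters no test unless stated. Replicate 3 of AMH 200 at 12 h was the next farthest, with a median correlation of 0.919, and the medians and named genes that it moved most are given with and without it. Signals are on the authors' linear MAS5 scale, and changes are differences of log2(signal + 16). The 2% trimmed mean was 150 on replicate 1 of vehicle at 24 h, the array on which it was computed. The level of one probe set cannot be set against that of another.

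The promoters of these genes are known to carry sites of the nuclear respiratory factor NRF1, of ETS factors such as GABP (NRF2), of YY1 and of the oestrogen-related receptors. RefSeq windows, from 250 bases before to 50 bases after a start (build GRCm38.p6), were at hand for 68 of the 84 genes and for 27025 genes in all. The NRF1 letters (GCGCA, any base, then GCGC) stood in 15 of the 68 genes (22.1%, against 5.19% of all genes with a window), and the ETS letters CCGGAAG in 17 (25.0%, against 9.93%). The YY1 letters AAGATGGCG were found in 6 of the 68 (8.82%, against 1.64%) and the oestrogen-related receptor letters TCAAGGTCA in 2 (2.94%, against 0.466%). The hypoxia response core ACGTG was found in 19 (27.9%, against 21.8%). Both strands were read and the motifs may overlap. Where a gene had more than 1 window, the letters counted if any window held them, and GC content was taken from the most GC-rich. On that measure the median GC content was 59.0% for the subunit genes and 53.3% for all genes. The windows thus differ in base composition as well. Among genes with a window, NRF1 letters stood in 6 of 15 of complex V, 5 of 31 of complex I and 2 of 3 of complex II. They stood in 1 of 5 of complex III and 1 of 13 of complex IV. A match of letters is a description of the sequence and not a binding site.

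Windows are printed for the muscle form Cox7a1 and its common paralogue Cox7a2, because the time course separated this pair, and for Sdhd and Ndufs5 as genes with NRF1 letters. All are written 5′ to 3′ on the strand of the gene, and capitals mark motif letters in either orientation. They lie at chr7:30183921-30184220 (plus strand, Cox7a1), chr9:79759804-79760103 (minus strand, Cox7a2), chr9:50603800-50604099 (minus strand, Sdhd) and chr4:123718137-123718436 (minus strand, Ndufs5). Capitals in Cox7a1 are the hypoxia core, those in Sdhd are in order NRF1, ETS and oestrogen-related receptor letters, and those in Ndufs5 are NRF1 letters. Cox7a2 held none of the motifs.
Cox7a1: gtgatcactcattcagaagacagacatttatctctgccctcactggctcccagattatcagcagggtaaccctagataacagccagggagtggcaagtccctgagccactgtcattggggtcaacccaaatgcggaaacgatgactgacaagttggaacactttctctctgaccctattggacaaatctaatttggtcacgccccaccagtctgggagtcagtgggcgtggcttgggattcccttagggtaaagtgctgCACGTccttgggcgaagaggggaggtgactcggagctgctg
Cox7a2: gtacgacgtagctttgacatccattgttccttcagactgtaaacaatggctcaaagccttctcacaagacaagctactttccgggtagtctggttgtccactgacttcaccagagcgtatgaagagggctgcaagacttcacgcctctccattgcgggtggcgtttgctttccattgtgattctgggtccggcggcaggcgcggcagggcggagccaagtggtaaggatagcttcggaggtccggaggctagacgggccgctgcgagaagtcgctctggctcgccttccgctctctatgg
Sdhd: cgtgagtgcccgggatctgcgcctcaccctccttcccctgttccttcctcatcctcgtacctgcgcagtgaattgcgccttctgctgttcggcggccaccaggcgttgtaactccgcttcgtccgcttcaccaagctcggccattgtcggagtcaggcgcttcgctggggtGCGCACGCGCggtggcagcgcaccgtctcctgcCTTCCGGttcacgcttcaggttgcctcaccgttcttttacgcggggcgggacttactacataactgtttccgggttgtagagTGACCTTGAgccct
Ndufs5: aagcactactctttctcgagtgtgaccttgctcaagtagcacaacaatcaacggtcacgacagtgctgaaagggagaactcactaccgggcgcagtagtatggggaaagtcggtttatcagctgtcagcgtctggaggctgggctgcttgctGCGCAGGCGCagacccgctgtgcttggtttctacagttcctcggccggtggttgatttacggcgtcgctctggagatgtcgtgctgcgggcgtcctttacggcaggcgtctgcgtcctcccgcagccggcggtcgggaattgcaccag

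The first comparison asked how the subunit genes moved in culture without AMH, from the 3 vehicle arrays of 24 h against the 3 of 12 h. Cox7a1 was the subunit gene whose change passed the test, and it rose about 3-fold by mean signal, while its common paralogue Cox7a2 stayed within the spread of the arrays. Most other subunits moved little: the median change of the 81 genes was 0.02 on the log2 scale, against 0.02 for all 22518 probe sets tested, and 44 of the 81 were higher at 24 h where 51.9% of all probe sets were. Complex medians were 0.03 for complex I, 0.11 for II, 0.02 for III, 0.00 for IV and -0.02 for V. In limma's test with Benjamini-Hochberg adjustment 1 of the 81 passed an adjusted p of 0.05, where 1.29% of all probe sets did (197 higher and 94 lower). At an unadjusted p under 0.05 there were 7 of the 81, where 18.6% of all probe sets passed.

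Cox7a1 encodes the heart and skeletal muscle form of a small complex IV subunit. Its signal was 312, 408 and 202 in vehicle cultures of 24 h, against 74.8, 128 and 66.2 in vehicle cultures of 12 h. The groups did not overlap, with means of 307 ± 103 at 24 h and 89.6 ± 33.4 at 12 h (SD, n = 3 each), and the log2 change was 1.61 (SE 0.31, limma adjusted p = 0.0495). The call stands at the threshold: it was lost in 5 of the 6 fits that left out 1 vehicle array (adjusted p 0.0724 to 0.236) and held without replicate 3 of 12 h (adjusted p = 0.0495), with a log2 change of 1.38 to 1.86 throughout. It was also lost with quantile normalization (1.56, adjusted p = 0.0574). With the replicate number as a block, the change was the same and its SE was 0.19 (adjusted p = 0.0204). The AMH arrays, which are separate cultures from the same pools, gave the same direction. In AMH 200 cultures Cox7a1 had 244, 253 and 239 at 24 h, against 63.1, 68.1 and 161 at 12 h (log2 change 1.31, SE 0.34, adjusted p = 0.0699). In AMH 50 cultures it had 416, 276 and 405 at 24 h, against 76.4 and 118 at 12 h (log2 change 1.76, SE 0.24, adjusted p = 0.00291). In all 3 doses the lowest 24 h array thus lay above the highest 12 h array. None of 5 markers of skeletal and heart muscle (Myh6, Actc1, Ckm, Myh2, Tnnt3) passed the filter on low signal, and their summed signal was 32.6 to 64.6 in vehicle cultures of 24 h and 24.9 to 63.2 in those of 12 h.

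Cox7a2, the form found in most tissues, had 2477, 3105 and 2522 at 24 h, against 2374, 3234 and 2669 at 12 h in vehicle cultures. The log2 change was -0.03 (SE 0.15), and the groups overlapped. Cox7a2l, a relative of Cox7a2, had 1700, 1756 and 1669 at 24 h, against 1394, 1417 and 1332 at 12 h. Its groups did not overlap, but its log2 change of 0.30 did not pass the test (SE 0.11, limma adjusted p = 0.20) and was -0.02 in AMH 50 cultures.

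Ndufa4l2 is the hypoxia-inducible relative of Ndufa4 and, in mammalian cells under low oxygen, lowers complex I activity. It had 681, 895 and 593 in vehicle cultures of 24 h, against 363, 355 and 135 in those of 12 h. The groups did not overlap, and the log2 change of 1.40 (SE 0.35) missed the threshold (limma adjusted p = 0.0906). It passed without replicate 3 of vehicle at 12 h (0.96, adjusted p = 0.0463). In the other fits that left out 1 vehicle array it did not pass (adjusted p 0.0835 to 0.304). Nor did it pass with quantile normalization (adjusted p = 0.0903) or with 17 arrays (adjusted p = 0.134). With the replicate number as a block it passed (adjusted p = 0.0364). That block called 2 of the 81 genes, Cox7a1 and Ndufa4l2, where it called 2.85% of all probe sets. In AMH 200 cultures Ndufa4l2 had 397, 616 and 582 at 24 h, against 36.6, 157 and 95.7 at 12 h, and the log2 change was 2.42 (SE 0.42, adjusted p = 0.0253). It was the 1 subunit gene called there, where 3.93% of all probe sets were called. In AMH 50 cultures it had 978, 818 and 787 at 24 h, against 504 and 108 at 12 h, a log2 change of 1.78 (SE 0.45, adjusted p = 0.0385). There 3 subunit genes were called (Cox7a1 and Ndufa4l2 higher, Cox7c lower at -0.98, adjusted p = 0.0416), where 7.6% of all probe sets were. Ndufa4 itself, a common complex IV subunit, had 1600, 1999 and 1695 at 24 h, against 1621, 2002 and 1747 at 12 h in vehicle cultures (log2 change -0.02, SE 0.14).

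**Figure D1:**
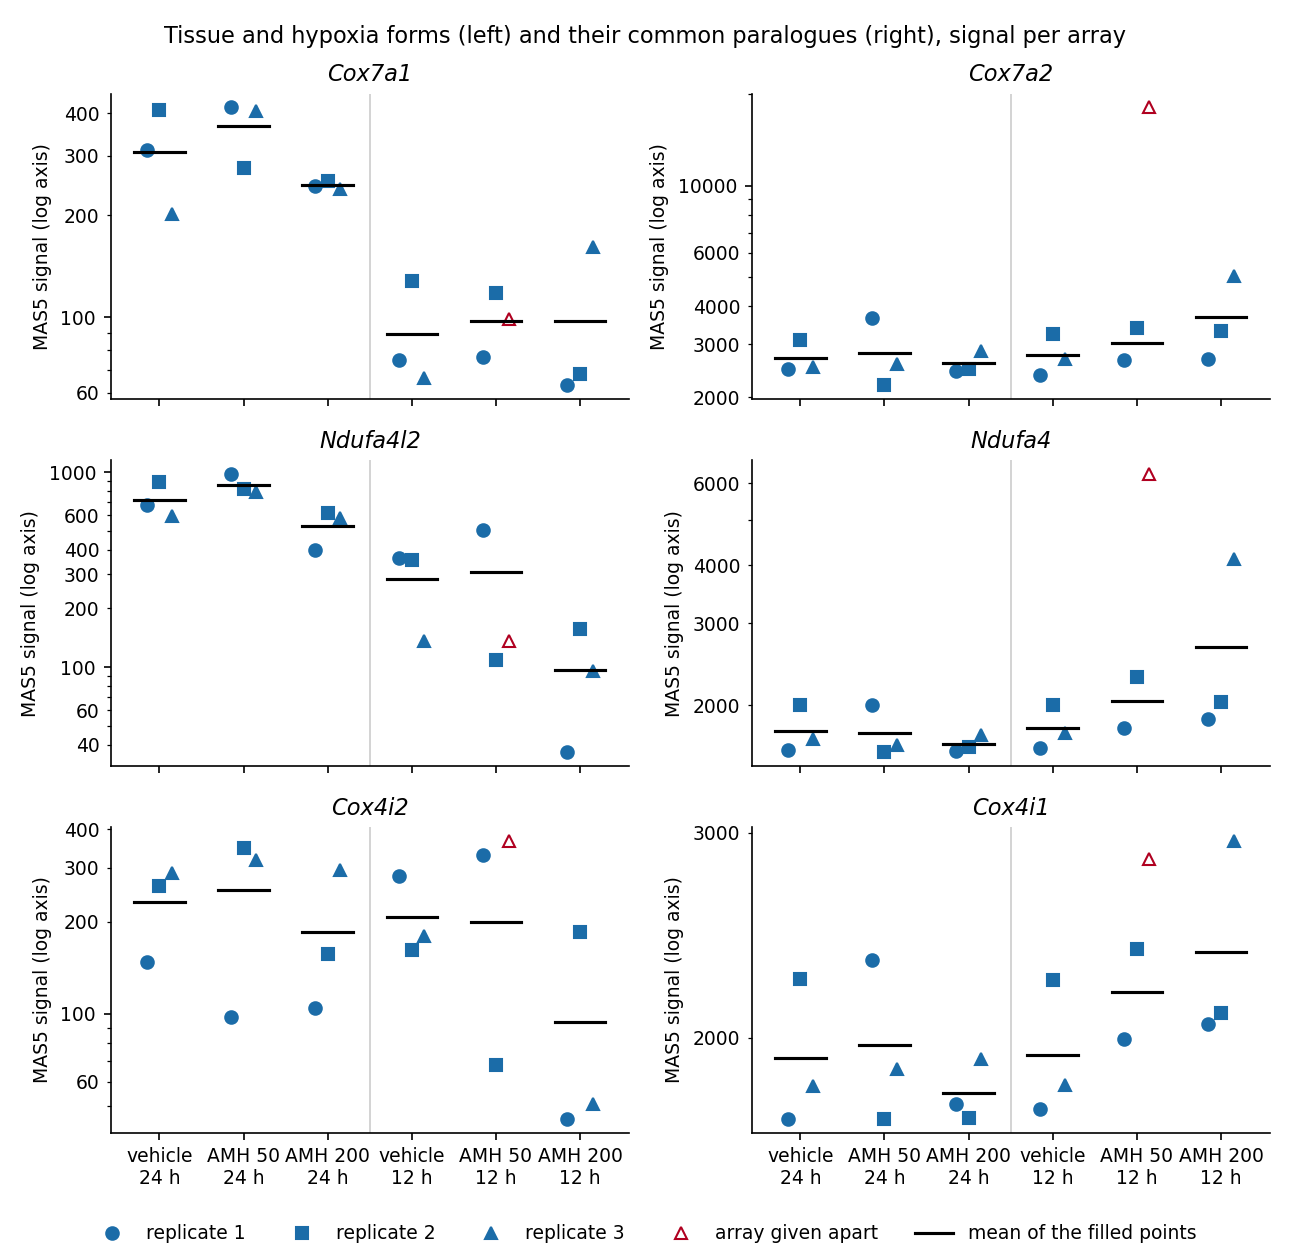
MAS5 signal on a log axis in every array of the 6 groups for the tissue or hypoxia forms Cox7a1, Ndufa4l2 and Cox4i2 (left) and their common paralogues Cox7a2, Ndufa4 and Cox4i1 (right). Shapes mark replicates, bars the mean of the filled points and the open red triangle replicate 3 of AMH 50 at 12 h. The 9 arrays of 24 h lie above the 8 filled arrays of 12 h for Cox7a1, and Cox7a2 shows no such step.

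Among complex I genes, Ndufb3, an accessory subunit of the membrane arm, had 1028, 1119 and 971 in vehicle cultures of 24 h, against 720, 460 and 764 in those of 12 h (log2 change 0.70, SE 0.20, limma adjusted p = 0.123). Ndufs5, another accessory subunit, had 991, 1156 and 957 at 24 h, against 815, 620 and 708 at 12 h (0.53, SE 0.15, adjusted p = 0.125). Ndufa6, an accessory subunit near the ubiquinone site, had 1514, 1737 and 1482 at 24 h, against 1176, 1145 and 1047 at 12 h (0.48, SE 0.13, adjusted p = 0.101). All 3 genes were higher on every 24 h array and none passed the test. Ndufa7 (0.55, SE 0.15, adjusted p = 0.104), an accessory subunit of the arm that takes up NADH, was also higher on every 24 h array in vehicle cultures, but in AMH 200 cultures its change was -0.07. Ndufb3 and Ndufs5 kept their direction in the AMH cultures, with log2 changes of 0.58 and 0.54 at AMH 200 and 0.45 and 0.51 at AMH 50. The gene with the lowest estimate was Ndufb1, a low-signal membrane-arm subunit with 48.9, 53.1 and 27.4 at 24 h, against 55.4, 61.4 and 67.2 at 12 h (-0.41, SE 0.24, adjusted p = 0.398).

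Counted over all 81 genes, 9 were higher on every vehicle array of 24 h than on any of 12 h (11.1% of them, where 13.6% of all probe sets were) and 1 was lower throughout (1.23%, where 11.4% of all were). The 9 were Cox7a1, Ndufa4l2, Ndufa6, Ndufa7, Ndufb3, Ndufs5, Sdha, Cox6c and Cox7a2l, and the 1 was Ndufb1. Sdha, the flavoprotein of succinate dehydrogenase, had 1827, 1753 and 1643 at 24 h, against 1472, 1474 and 1544 at 12 h (log2 change 0.21, SE 0.12). Cox6c, a small complex IV subunit, changed by 0.25 (SE 0.12). The other complex II genes overlapped between times, Sdhd with a log2 change of 0.32 (SE 0.15), Sdhb with -0.06 and Sdhc with 0.00. In complex III the estimates ran between Uqcr10, a small subunit (0.34, SE 0.15), and Cyc1, the electron carrier cytochrome c1 (-0.20, SE 0.13), and Cycs had -0.21 (SE 0.15).

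Genes that serve these complexes were counted beside them. Of 43 tested assembly factors 28 were higher at 24 h in vehicle cultures (median 0.06), and 1 passed the test, Nubpl, which delivers iron-sulfur clusters to complex I (log2 change 1.21, SE 0.19, limma adjusted p = 0.0332). None passed among the citric acid cycle genes (5 of 16 higher, median -0.12), regulators of mitochondrial biogenesis (7 of 16, median -0.09), mitochondrial import genes (9 of 19, median -0.03), mitochondrial ribosomal proteins (35 of 76, median -0.02), antioxidant and uncoupling genes (6 of 14, median -0.01) or glycolysis and hypoxia genes (13 of 25, median 0.01). At an unadjusted p under 0.05 these 6 lists had 1, 2, 1, 8, 2 and 5 genes, where 18.6% of all probe sets passed. Of all probe sets 51.9% were higher at 24 h and 1.29% passed the adjusted test. The array's single tested mitochondrially encoded subunit, ND5 of complex I, had a change of 0.10 (SE 0.25). Cell type markers moved with time as well. All 9 granulosa markers were higher at 24 h and 2 passed, the FSH receptor Fshr (2.43, SE 0.45, adjusted p = 0.0477) and the transcription factor Foxl2 (1.05, SE 0.14, adjusted p = 0.0196), with summed signals of 9331 to 10340 at 24 h and 3605 to 5910 at 12 h. All 6 tested endothelial markers were lower (median -0.83, none called), with sums of 621 to 1465 at 24 h and 1054 to 3900 at 12 h. Of the surface epithelium markers 6 of 8 were higher and Upk3b passed (2.53, adjusted p = 0.0447), and of the leukocyte markers Csf1r passed as lower (-2.27, adjusted p = 0.0459) while 5 of 7 were higher. Oocyte (9 of 11 higher) and theca markers (5 of 5 higher) had none that passed. The part of these markers in the changes of Cox7a1 and Ndufa4l2 was not tested.

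The second set of comparisons asked what AMH did within a pool at 24 h. No subunit gene passed limma's test at either dose, where 0.0% of all probe sets did at AMH 50 and 0.0% at AMH 200. With 50 ng/mL the median change of the 81 genes was 0.01 (all probe sets -0.01), and 45 of 81 were higher than in vehicle where 48.5% of all probe sets were. With 200 ng/mL the median was -0.08 (all probe sets 0.01), and 11 of 81 were higher where 53.5% of all were. At an unadjusted p under 0.05 there was 1 of 81 at AMH 50, where 2.69% of all probe sets passed, and 1 at AMH 200, where 1.68% did. Both doses share the vehicle arrays.

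The medians did not repeat from pool to pool. At AMH 50 and 24 h the subunit genes had a median difference from vehicle of 0.33 in pool 1, -0.37 in pool 2 and 0.04 in pool 3, and 74, 7 and 61 of the 81 were higher. At AMH 200 the medians were -0.03, -0.30 and 0.10, and 31, 5 and 69 were higher. Without pool 2 the fitted AMH 200 median was 0.04, with 56 of 81 higher. In pool 2 the vehicle array of 24 h, which both doses share, had a median log2 signal of 10.77 over the subunit genes, the highest of the 3 vehicle arrays of 24 h, and in pool 1 the AMH 50 array had 10.84, the highest of all 24 h arrays. The pooled SD of this median within groups was 0.17 over 17 arrays. It describes single arrays with the differences between pools included, and is not the error of a fitted median. The fitted medians of both doses at 24 h were smaller in size than this SD. In pool 2 at AMH 200 the medians were -0.26 for complex I, -0.30 for II, -0.38 for III, -0.31 for IV and -0.32 for V. Lower on the AMH 200 array in every pool were 7 of the 81 genes (8.64%), where 11.9% of all probe sets were. Leukocyte markers (0 of 7 higher at either dose, medians -0.97 at AMH 200 and -0.87 at AMH 50) and surface epithelium markers (0 of 8 higher at either dose, medians -0.61 and -0.72) were lower than in vehicle, with none passing, and their part was not tested.

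**Figure D2:**
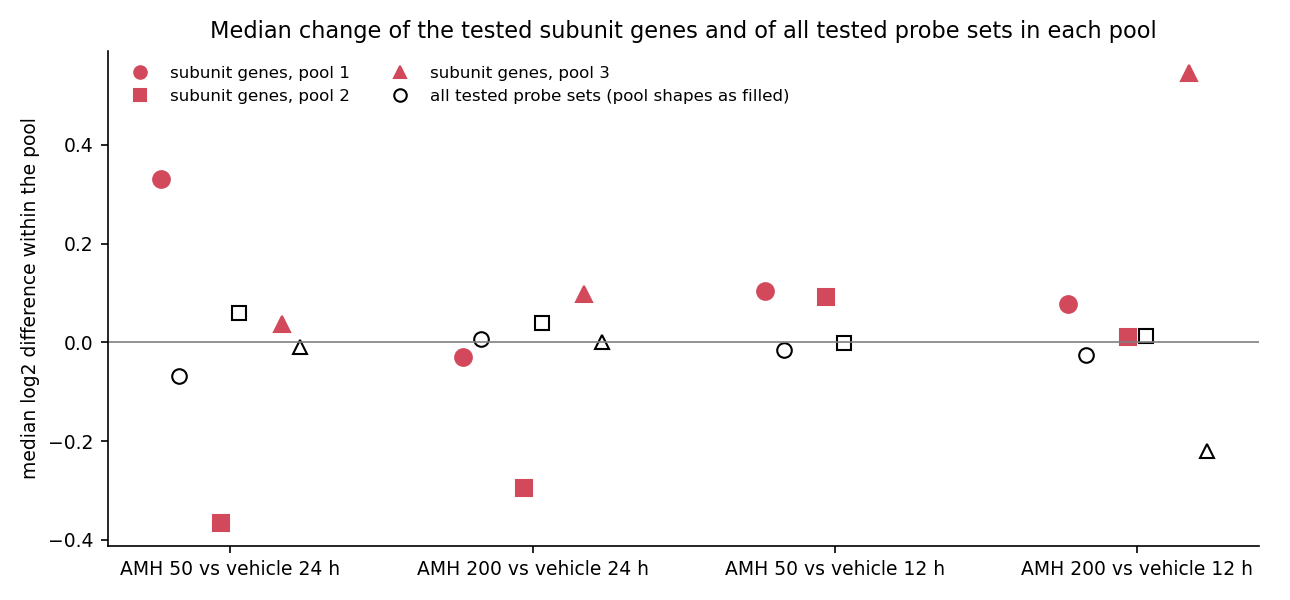
Median log2 difference from the vehicle array of the same pool over the 81 tested subunit genes (filled) and over all tested probe sets (open), for each AMH dose and time. Shapes mark pools, and replicate 3 of AMH 50 at 12 h is left out. The subunit genes spread between -0.37 and 0.33 at 24 h, and at 12 h pool 3 of AMH 200 lies apart at 0.54.

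The gene with the smallest p at 24 h was Cox6a2, the heart and skeletal muscle form of a complex IV subunit, at both doses. It had 28.9, 39.4 and 105 in vehicle cultures, 25.9, 23.1 and 35.6 with AMH 50, and 23.9, 31.3 and 30.3 with AMH 200. Vehicle was higher in every pool, mostly in pool 3, with log2 changes of -0.61 at AMH 50 and -0.59 at AMH 200 (SE 0.25 each, limma adjusted p = 1 each). Without pool 3 these were -0.30 and -0.20. Atp5pb, the b subunit of the ATP synthase stalk, had -0.24 at AMH 200 (SE 0.12), with signals of 1142, 902 and 1231 in AMH 200 cultures, against 1345, 1316 and 1188 in vehicle cultures, so 1 of the 3 pools went the other way. Ndufb2 (-0.29, SE 0.18), a membrane-arm accessory subunit, and Ndufab1 (-0.19, SE 0.14), the mitochondrial acyl carrier protein, did not pass either. Without pool 2 the changes of Atp5pb, Ndufb2 and Ndufab1 were -0.091, -0.10 and -0.083. The largest positive estimate at AMH 200 was Cox6b2, the testis form of a complex IV subunit, with 190, 240 and 159 in AMH 200 cultures, against 152, 196 and 128 in vehicle cultures (0.28, SE 0.18, higher in 3 of 3 pools). At AMH 50 the positive estimates with the smallest p were those of Ndufs7, a core iron-sulfur subunit of complex I (0.22, SE 0.15), and Uqcrfs1, the Rieske protein of complex III (0.17, SE 0.13). Complex II estimates at AMH 200 were all below 0, between -0.24 for Sdhd and -0.08 for Sdha.

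Between the doses at 24 h (AMH 200 minus AMH 50) no subunit gene passed, where 0.0% of all probe sets did, and the median was -0.09. It rested on pool 1, where the median was -0.39, against 0.06 in pool 2 and 0.07 in pool 3, and without pool 1 the fitted median was 0.06. The genes with the smallest p were Atp5pb (-0.23, SE 0.12), Atp5g1, a gene of the membrane ring of the ATP synthase (-0.24, SE 0.14), and Cox7a1 (-0.53, SE 0.32), each lower in AMH 200 cultures in every pool. Ndufa4l2 had the lowest estimate at -0.70 (SE 0.51). None of the 81 had an unadjusted p under 0.05 there, where 4.16% of all probe sets did.

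At 12 h the subunit genes stood higher in AMH cultures by their medians, but no gene passed the test at either dose, where 0.0% of all probe sets did at AMH 200 and 0.0% at AMH 50. With AMH 200 the median change of the 81 genes was 0.18 (all probe sets -0.08), and 69 of 81 were higher where 39.6% of all probe sets were. At an unadjusted p under 0.05 there were 7 of 81 (8.64%), where 11.4% of all passed. By complex the medians were 0.13 for I, -0.03 for II, 0.21 for III, 0.25 for IV and 0.21 for V. Without replicate 3 of AMH 200 at 12 h they were 0.01 for I, -0.05 for II, 0.04 for III, 0.09 for IV and 0.05 for V. The pools differed: the median was 0.08 in pool 1, 0.01 in pool 2 and 0.54 in pool 3. The AMH 200 array of pool 3 had the highest median log2 signal of the subunit genes of all arrays (11.04) and the lowest of all tested probe sets among the 17 arrays (7.32). Its summed signal of ovarian surface epithelium markers was 11970, against at most 6411 on the other arrays, and 8 of 8 of these markers were higher at AMH 200 and 12 h (median 0.56, none passed). Granulosa markers were higher in 2 of 9 there (median -0.27, none passed, 3 with an unadjusted p under 0.05), with sums of 3025 to 6063 in AMH 200 cultures and 3605 to 5910 in vehicle cultures of 12 h. The part of either marker list in the subunit values was not tested. Without the AMH 200 array of pool 3 the median was 0.03 (54 of 81 higher), and with quantile normalization it was 0.03 (48 of 81 higher). Higher on the AMH 200 array in every pool of 12 h were 25 of 81 genes (30.9%), where 8.76% of all probe sets were.

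**Figure D3:**
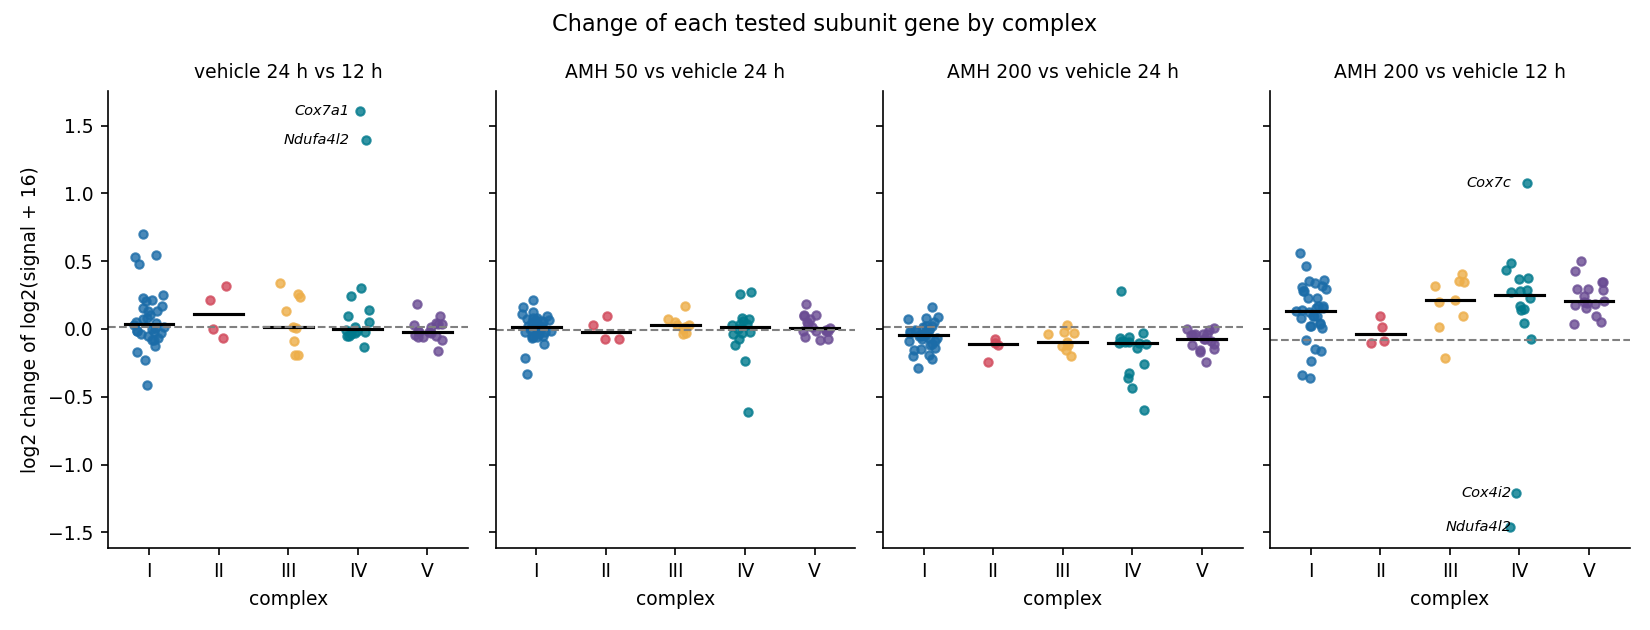
log2 change of log2(signal + 16) for each of the 80 tested genes of complexes I to V (points), with the median of the complex (black bar) and of all tested probe sets (dashed line), in 4 comparisons. Complex medians at AMH 200 and 12 h lie between -0.03 and 0.25, those of vehicle 24 h against 12 h between -0.02 and 0.11, with Cox7a1 at 1.61.

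Cox7c, a small structural subunit of complex IV, had the smallest p at AMH 200 and 12 h. Its probe set had a low signal, with a median of 68.6 and a range of 40.7 to 314 on the arrays used in the tests. Cox7c had 128, 148 and 314 in AMH 200 cultures, against 53.9, 147 and 56.5 in vehicle cultures. The difference was thus large in pools 1 and 3 and near 0 in pool 2. The log2 change was 1.08 (SE 0.33, limma adjusted p = 0.432), and it was 1.61 without pool 2 (adjusted p = 0.0476) and 0.53 without the AMH 200 array of pool 3 (adjusted p = 1). The fit without pool 2 called 242 probe sets. A second Cox7c probe set gave 0.95 (SE 0.36). Ndufa4 had 1865, 2034 and 4130 in AMH 200 cultures, against 1621, 2002 and 1747 in vehicle cultures (0.49, SE 0.20), and its change without the AMH 200 array of pool 3 was 0.11. Ndufa7 (0.47, SE 0.19) and Uqcr10 (0.40, SE 0.19) were higher in every pool and did not pass, and both had a change of 0.19 without that array.

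The hypoxia-linked forms had the lowest estimates at AMH 200 and 12 h. Ndufa4l2 had 36.6, 157 and 95.7 in AMH 200 cultures, against 363, 355 and 135 in vehicle cultures, lower in 3 of 3 pools (log2 change -1.46, SE 0.51, limma adjusted p = 0.432). Cox4i2, the lung form of a regulatory complex IV subunit, had 45.4, 185 and 50.8 in AMH 200 cultures, against 281, 161 and 180 in vehicle cultures (-1.21, SE 0.49, adjusted p = 0.432). It was lower in pools 1 and 3 and not in pool 2. Without pool 2 the change was -1.91 (adjusted p = 0.0323), in a fit that called 242 of the 22518 probe sets. Without the AMH 200 array of pool 3 the Cox4i2 change was -1.04 and did not pass. It ran from -1.91 to -0.68 when 1 replicate was left out. The common form Cox4i1 had 2056, 2102 and 2952 in AMH 200 cultures, against 1738, 2242 and 1822 in vehicle cultures (0.28, SE 0.17). Ndufs1, a core iron-sulfur subunit of complex I, was lower in 3 of 3 pools, with 445, 599 and 244 in AMH 200 cultures, against 477, 623 and 482 in vehicle cultures (-0.36, SE 0.16). Without the AMH 200 array of pool 3 the Ndufs1 change was -0.076. Of the 25 glycolysis and hypoxia genes 10 were higher at AMH 200 and 12 h (median -0.20), where 39.6% of all probe sets were. None passed and 8 had an unadjusted p under 0.05, where 11.4% of all probe sets did. The smallest p belonged to Aldoc (-1.12, SE 0.21) and Slc16a3 (-1.61, SE 0.37), a glycolytic enzyme and a lactate exporter. Endothelial markers were lower in 6 of 6 (median -0.55, none passed), with sums of 1009 to 1595 in AMH 200 cultures and 1054 to 3900 in vehicle cultures of 12 h. Their part in the values of Ndufa4l2 and Cox4i2 was not tested.

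With AMH 50 at 12 h only pools 1 and 2 were used. The direct pool medians were 0.10 and 0.09 over the 81 genes (all probe sets -0.02 and 0.00), and 67 and 63 of 81 were higher. The fit, which also draws on pool 3 through its AMH 200 array, gave a median of 0.20 (all probe sets -0.05) and 70 of 81 higher, where 42.1% of all probe sets were. Without pool 3 the fitted median was 0.10. At an unadjusted p under 0.05 there were 4 of 81 (4.94%), where 5.69% of all passed: Ndufb3 (0.39, SE 0.15), Uqcr10 (0.53, SE 0.22), Sdhd (0.53, SE 0.23) and Ndufb2 (0.47, SE 0.22). Without pool 3 their changes were 0.35, 0.42, 0.41 and 0.41, and of these 4 only Ndufb3 kept an unadjusted p under 0.05. Sdhd, a membrane anchor of complex II, had 1737 and 1926 in AMH 50 cultures, against 1473 and 1272 in the vehicle cultures of the same pools. Cox7c (0.78, SE 0.38) and Ndufs1 (-0.38, SE 0.19) had the direction they had at AMH 200, against the same vehicle arrays. Without pool 3 these changes were 0.50 and -0.23. Between the doses at 12 h (AMH 200 minus AMH 50) no gene passed, where 0.0% of all probe sets did, and the median was 0.01. None of the 81 had an unadjusted p under 0.05, where 5.61% of all probe sets did. The smallest p there belonged to Cox6a2 (0.62, SE 0.29), Uqcrfs1 (-0.31, SE 0.15) and Ndufb3 (-0.31, SE 0.15). Ndufa4l2 had the lowest estimate (-1.16, SE 0.60), which ran from -2.70 to 0.65 when 1 pool was left out.

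Among the lists of genes that serve mitochondria, import genes and mitochondrial ribosomal proteins were mostly higher at 12 h. At AMH 200, 16 of 19 import genes (median 0.24) and 54 of 76 mitochondrial ribosomal proteins (median 0.12) were higher, and at AMH 50 15 of 19 (median 0.24) and 60 of 76 (median 0.18), with none passing limma's test. Of all probe sets 39.6% were higher at AMH 200 and 42.1% at AMH 50. At an unadjusted p under 0.05 import genes and ribosomal proteins had 3 and 9 genes at AMH 200, where 11.4% of all probe sets passed. At AMH 50 they had 3 and 11 genes, where 5.69% of all did. Citric acid cycle genes were higher in 5 of 16 at AMH 200 (median -0.07) and 6 of 16 at AMH 50 (median -0.01), and regulators of mitochondrial biogenesis in 8 of 16 (median -0.08) and 5 of 16 (median -0.06). Assembly factors were higher in 20 of 43 at AMH 200 and 27 of 43 at AMH 50. The part of the AMH 200 array of pool 3 in the counts of these lists was not tested. At AMH 200 and 24 h, 3 of 19 import genes (median -0.12), 26 of 76 ribosomal proteins (median -0.03) and 3 of 25 glycolysis and hypoxia genes (median -0.13) were higher, where 53.5% of all probe sets were. Oocyte markers were lower in 11 of 11 at AMH 50 at both times (medians -1.01 at 24 h and -0.88 at 12 h, none called), with sums of 1000 to 4400 in AMH 50 cultures and 1660 to 7455 in vehicle cultures of 24 h. Their part in the subunit values was not tested.

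Over both times, AMH 200 against vehicle left no subunit gene past the threshold, where 0.0% of all probe sets passed. The median was 0.04 (all probe sets -0.03), 59 of 81 genes were above 0 where 41.7% of all were, and 2 of 81 had an unadjusted p under 0.05 where 3.39% of all did. These 2 were Ndufa4l2 (-0.95, SE 0.36, limma adjusted p = 0.951) and Cox4i2 (-0.79, SE 0.35), and Cox7c had 0.38 (SE 0.23). Without the AMH 200 array of pool 3 at 12 h the median was -0.02, with 28 of 81 above 0, and the change of Cox7c was 0.10. Ndufa4l2 was the 1 subunit gene lower in AMH 200 cultures in all 6 pools (1.23% of 81, where 1.42% of all probe sets were), with 397, 616 and 582 in AMH 200 cultures of 24 h, against 681, 895 and 593 in their vehicle cultures. The test of whether the AMH 200 effect differed between times (24 h minus 12 h) also called none, where 0.0% of all probe sets passed. At an unadjusted p under 0.05 there were 5 of 81 (6.17%), where 7.19% of all probe sets passed. The median of this difference was -0.28 (all probe sets 0.10), and -0.09 without the AMH 200 array of pool 3 at 12 h. Cox7c had -1.40 (SE 0.46, adjusted p = 0.627), Cox6a2 -1.03 (SE 0.36), Ndufb2 -0.65 (SE 0.26), Ndufa7 -0.61 (SE 0.27) and Ndufab1 -0.42 (SE 0.19). When 1 replicate was left out, Cox7c ran from -1.86 to -0.85 and Ndufa7 from -0.72 to -0.33, both nearest 0 without the AMH 200 array of pool 3 at 12 h. Cox6a2 ran from -1.35 to -0.50, nearest 0 without replicate 3 of both times. Genes higher at 12 h and lower at 24 h with AMH 200 in every pool were 4 of 81 (4.94%), where 1.48% of all probe sets were.

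Among the remaining paired forms, the genes below the filter were tissue forms. Cox8b, the heart and muscle form, gave 1.64 to 14.4 on the 17 arrays, and Cox8c and Cox7b2, testis forms, at most 23.1 and 4.50. Cox8a, the common partner of Cox8b and Cox8c, ran between 668 and 1108. Cox6a1, the common partner of Cox6a2, ran between 2448 and 4539, and Cox6b1, that of Cox6b2, between 1940 and 4056, all on probe sets whose levels cannot be compared with each other. None of Cox6a1, Cox6b1 and Cox8a differed between vehicle cultures of 24 and 12 h by more than 0.10 on the log2 scale (-0.05, -0.04 and 0.10, SE 0.14 to 0.16).

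Replicate 3 of AMH 50 at 12 h gave subunit values outside the range of the other 17 arrays for 73 of the 81 genes. Of them 31 were above the highest (38.3%, where 23.7% of all tested probe sets were) and 42 below the lowest (51.9%, where 48.4% were), with 8 within the range. The counts by complex are to be read beside these shares, and a difference between complexes was not tested. All 4 complex II genes were below (Sdha at 31.1, where the other arrays gave 1355 to 1890, and Sdhd at 61.1, against 945 to 1926). Complex I had 10 above and 20 below, complex III 3 and 5, complex IV 8 and 5, complex V 9 and 8, and Cycs lay above. Paralogues parted on it. Cox7a2 reached 18120 where the other arrays ended at 5025, while Cox7a2l gave 84.6 where they began at 1332. Cox7a1 gave 99.0, within their range of 63.1 to 416. Cox6a1 gave 77.5 where the other arrays began at 2448, while Cox6a2 gave 357 where they ended at 141. Ndufc1, an accessory subunit of complex I, gave 1.18 where the others gave 2441 to 4284, and Cox8b, at 353, was above its highest value of 14.4 elsewhere. Within 2-fold of the other arrays' median were 21 of 81. The difference from the vehicle array of its pool had a median of -0.63 over the 81 genes (all probe sets -0.70) and of -3.28 over complex II.

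**Figure D4:**
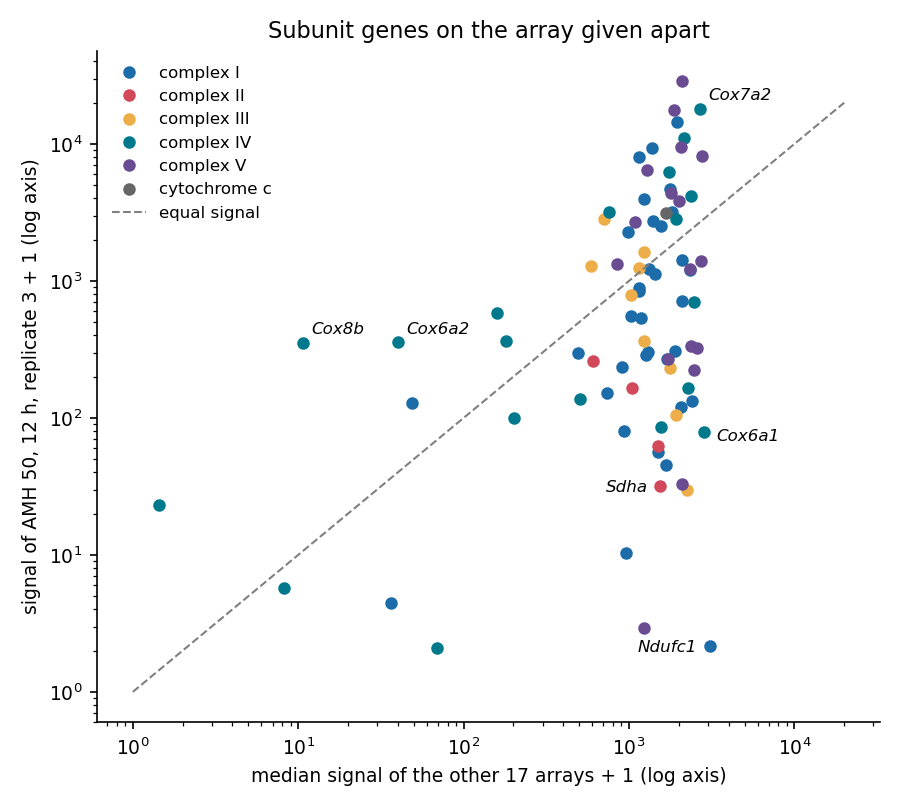
Signal + 1 of each of the 84 subunit genes on replicate 3 of AMH 50 at 12 h (vertical, log axis) against its median over the other 17 arrays (horizontal, log axis), coloured by complex, with equality dashed. Points lie far above and far below the line within every complex except complex II, all 4 of whose genes lie below it.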

How the data were processed

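Each of 18 cultures had its RNA, 5 ng, amplified and measured on an Affymetrix 430 2.0 mouse array, per the labels' protocols. The deposited table holds 1 signal intensity per probe set, which the authors computed with MAS5 per the submitters' processing notes (version not given in the sources used here). The 2% trimmed mean was computed on replicate 1 of vehicle at 24 h, where it was 150. The table has 45101 probe sets. Leaving out 64 controls, 34945 of them had 1 symbol in the platform annotation, 932 several and 9160 none.

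The intensities were used as deposited, with 16 added before log2, and the 22518 probe sets whose mean log2 signal exceeded the 50th percentile were tested. limma 3.58.1 (R 4.3.3) with an intensity trend was fitted, two-sided, with Benjamini-Hochberg adjustment over all 22518 probe sets at 0.05. AMH comparisons used 17 arrays with the pool (time and replicate number) as a block (7 residual degrees of freedom), because the series' text calls samples comparable within an experiment, and vehicle 24 h against 12 h used the 6 vehicle arrays without a block (4 residual degrees of freedom). Arrays of 12 and 24 h with the same replicate number deviated together (r = 0.32, 0.26 and 0.21 over probe sets). The main vehicle test stayed without a block. Values of a fit that pairs these arrays by replicate number stand beside the results they change. That pairing comes from the data. In the AMH comparisons p-values measure how much the differences between doses varied from pool to pool, with the level of each pool removed. In the vehicle comparison without a block they measure the spread between these pools.

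Genes were named by a rule: paralogue groups, complex II and cytochrome genes, the genes with the smallest p in each direction, and the gene with the largest change per complex. Genes named for not overlapping between times, or for their values on the array set apart, were chosen after their values were seen. The members, gene lists and marker lists were chosen with earlier results of these data known. Alternatives were pseudocounts of 1 and 50, quantile normalization, median centring, no filter or a 75th percentile filter, no variance trend, the mean of a gene's probe sets, other sets of arrays, array weights, blocks and leaving out replicates. Those without replicate 3 of AMH 200 at 12 h, and with AMH arrays in place of vehicle, were chosen after seeing the data. The fit was tested on simulated data. Promoter windows and coordinates are RefSeq's (GRCm38.p6). Figures were drawn with matplotlib 3.10.9.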

Additional observations from a re-analysis of the deposited data

Results flagged for a closer look

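A total of 4 subunit genes were higher with AMH 200 than with vehicle in every pool of 12 h and lower in every pool of 24 h. These were 4.94% of the 81, where 1.48% of all probe sets were. The difference between the times (24 h minus 12 h) was -0.42 on the log2 scale for Ndufab1, the mitochondrial acyl carrier protein, -0.52 for Uqcr11, a small complex III subunit, -1.03 for Cox6a2, the muscle form of a complex IV subunit, and -0.35 for Atp5g1, a gene of the ATP synthase ring. None passed limma's test of the difference (adjusted p = 0.627 each). Cox6a2 had a low signal, 23.1 to 141 on the other 17 arrays, and its difference ran from -1.35 to -0.50 when 1 replicate was left out. Replicate 3 of AMH 50 at 12 h was left out of the main comparisons. On it 31 of 81 subunit genes (38.3%) lay above the highest of the other 17 arrays, where 23.7% of all tested probe sets did.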

How the results depend on the processing

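Of 806 values of named genes under alternatives, 767 kept their direction and side of the threshold, 17 reversed, 11 came to pass and 11 no longer passed. The 11 that no longer passed were all Cox7a1 in vehicle cultures, the only subunit gene called in a main fit. Most of the 806 belong to tests that did not pass in the main fit. Some could not change, such as the 24 h estimates with all 18 arrays. The 767 therefore do not describe how firm the call of Cox7a1 is. With array weights over all 18 arrays, whose estimation did not converge, limma called 1480 probe sets at AMH 50 and 24 h (2 subunit genes), 21 at AMH 200 and 24 h, 924 between the doses at 24 h (1 subunit gene), 114 at AMH 50 and 12 h, 78 at AMH 200 and 12 h (1 subunit gene, Ndufa4l2 at -2.26), 6 between the doses at 12 h, 6 over both times and 11 for the difference between times. With the arrays of 24 h alone, 1 probe set was called at AMH 50. The median of the subunit genes was -0.18 at AMH 50 and 12 h with all 18 arrays. The median difference of the AMH 200 effect between times was -0.036 with quantile normalization, -0.10 with array weights and -0.088 without replicate 3 of AMH 200 at 12 h. In fits that left out 1 replicate it ran from -0.37 to -0.088, the AMH 50 median at 24 h from -0.17 to 0.19, and probe sets called from 0 to 4 (AMH 50, 12 h), 0 to 242 with 0 to 2 subunit genes (AMH 200, 12 h) and 0 to 17 (between doses, 12 h). The causes were not tested.

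For vehicle 24 h against 12 h, 291 probe sets and 1 subunit gene became 154 and 0 with a pseudocount of 1, 103 and 0 without a filter, and 66 and 0 with the 75th percentile filter, which left Cox7a1 untested. With the replicate block 642 probe sets and 2 subunit genes were called, with array weights 767 probe sets, and with 17 arrays 676 and 2. The AMH 200 arrays gave 884 probe sets and a median of -0.26, the AMH 50 arrays 1711 and 3 subunit genes. Leaving out 1 array gave 0 to 531 probe sets and 0 to 2 subunit genes: 1 probe set without replicate 1 of vehicle at 24 h, 0 without replicate 2 or 3 of it, and 35 without replicate 2 and 531 without replicate 3 of vehicle at 12 h. Median centring and no variance trend left 0 subunit genes. Cox7a1 had an adjusted p of 0.0588 with median centring, 0.0574 with quantile normalization, 0.0572 with a pseudocount of 1, 0.0721 without a filter and 0.0555 without the trend.

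Signs turned for Ndufs7 at AMH 50 and 24 h without replicate 1 (-0.0095, the highest without 1 replicate being 0.36). With all 18 arrays they turned at AMH 50 and 12 h for Ndufb3 (-0.78), Uqcr10 (-0.65), Sdhd (-1.05), Ndufb2 (-0.45) and Cox7c (-0.36), and for Cox6a2 between the doses (-0.047). Ndufa4l2 between the doses at 12 h ran from -2.70 to 0.65, and Cox7c over both times from -0.0012 to 0.68, when 1 replicate was left out. AMH 200 arrays in place of vehicle turned Ndufa7 (-0.066), Uqcr10 (-0.22), Sdhd (-0.026) and Cox6c (-0.19), and AMH 50 arrays turned Cox7a2l (-0.023), Uqcr10 (-0.051), Sdhd (-0.24) and Cox6c (-0.010). Leaving out the pool block changed no count of calls.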

Other observations

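The promoter windows differed between complexes in other motifs too. Among genes with a window, ETS letters stood in 6 of 15 of complex V, 4 of 31 of complex I and 3 of 13 of complex IV. They stood in 2 of 5 of complex III and 2 of 3 of complex II. YY1 letters stood in 4 of 31 such genes of complex I and 2 of 15 of complex V, and in none of complexes II, III and IV.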
